A study of Rattus norvegicus with 241 samples.

Results

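Complement is a set of plasma and tissue proteins that marks targets and recruits inflammatory cells, and 8 of its genes are described here: C1QA, C1QB, C1QC, C1S, C3, C4B, CFB and CFD. They were 8 of 16820 genes in the bulk tables, and each was also listed in the single-cell tables, which held 15586 genes in sorted ACI cells, 16437 in sorted SD cells and 18237 in whole SD glands. Symbols were matched ignoring case. The members were selected on their measured levels and differences in these same samples, over the comparisons of cell fractions, estradiol (E2), N-nitroso-N-methylurea (NMU) glands, parity and treatment. All differences of the members are therefore given as a description, without a test, and the counts of members that passed a threshold stand beside the share of all genes that did.

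The series holds rat mammary cells profiled after oral dosing with TGFBRi (galunisertib, LY2157299, which blocks the kinase of the type I TGFβ receptor) at 75 mg/kg or with vehicle. Bulk RNA-seq was made on cells sorted as basal (CD24+CD29high), luminal (CD24+CD29low) or CD45+ leukocytes, and on EPCAM+ and CD45+ cells of tumors. Single-cell RNA-seq was made on sorted basal and luminal cells of young ACI and SD rats and on whole glands of young SD rats. All rats were female.

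Dosing of young ACI rats began at about 35 days of age, lasted 10 days, and the rats were taken on day 0, 7 or 14 after the last dose, with 3 rats per group. Dosing of young SD rats began at about 24 days and also lasted 10 days, with 4 per group taken on day 0. The adult ACI rats, aged 18 to 24 weeks, were virgin or parous, were dosed for 10 days and were taken on day 0. There were 4 rats per group in basal and luminal cells, and 4 virgin vehicle, 3 virgin TGFBRi, 2 parous vehicle and 4 parous TGFBRi rats in CD45+ cells. In the NMU experiment SD rats were given TGFBRi or vehicle for 10 days from 21 days of age and then received the carcinogen NMU at 50 mg/kg. They were taken at day 87, when the 3 vehicle rats bore tumors and the TGFBRi rats were 3 tumor-free and 3 tumor-bearing animals. In the E2 experiment dosing of ACI rats began at 38 days of age and lasted 21 days, and they received a silastic implant with 37 mg of E2 or an empty implant at 60 days. Their cells were taken at the end of the tumor experiment. There luminal and CD45+ cells came from 4 vehicle and 3 TGFBRi rats without E2, 4 tumor-bearing vehicle rats with E2, and 4 tumor-free and 2 tumor-bearing TGFBRi rats with E2. E2 and tumor bearing cannot be told apart in the vehicle rats of that experiment.

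In the classical pathway C1q, built of chains encoded by C1QA, C1QB and C1QC, binds antibody or cell surfaces and activates the protease encoded by C1S, which cleaves C4 and C2. C4 fragments help form an enzyme that cleaves C3, the component on which all pathways converge. In the alternative pathway factor D, encoded by CFD, cleaves factor B, encoded by CFB, when factor B is bound to C3b. In tissue C1q is made mainly by macrophages, factor D is also known as adipsin, a product of fat cells, and epithelia and fibroblasts can make other components.

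RefSeq promoter sequences of the GRCr8 assembly matched 5 of the 8 members, C1qa, C1qb, C3, C4b and Cfd. The 250 bases before the start are shown for the C1q chains because they varied together, for C3 because it carried the E2 difference, and for C4b because it carried the NMU difference. They lie at chr5:154419934-154420183 (minus strand), chr5:154407828-154408077 (minus strand), chr9:2201340-2201589 (minus strand) and chr20:4201729-4201978 (plus strand), in that order. Capitals mark matches, on either strand, to GGAAGT (the ETS core), TTGCNNAA (C/EBP type), TTCNNNGAA (STAT type) or CACGTG (an E-box), and no matches overlapped each other.
C1qa: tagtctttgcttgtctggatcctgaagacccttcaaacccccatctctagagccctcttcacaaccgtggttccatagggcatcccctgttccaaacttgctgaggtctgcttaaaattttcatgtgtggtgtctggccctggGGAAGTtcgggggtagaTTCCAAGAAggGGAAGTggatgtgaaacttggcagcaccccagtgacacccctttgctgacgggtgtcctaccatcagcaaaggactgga
C1qb: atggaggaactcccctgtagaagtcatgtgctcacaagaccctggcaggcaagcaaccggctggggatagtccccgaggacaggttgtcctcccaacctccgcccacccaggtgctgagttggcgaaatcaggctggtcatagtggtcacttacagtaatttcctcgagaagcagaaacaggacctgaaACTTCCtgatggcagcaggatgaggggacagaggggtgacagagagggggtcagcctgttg
C3: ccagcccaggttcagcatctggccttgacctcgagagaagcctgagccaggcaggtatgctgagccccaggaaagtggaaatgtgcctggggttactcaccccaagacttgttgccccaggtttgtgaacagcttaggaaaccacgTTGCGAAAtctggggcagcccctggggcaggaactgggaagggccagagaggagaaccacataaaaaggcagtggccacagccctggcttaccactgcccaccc
C4b: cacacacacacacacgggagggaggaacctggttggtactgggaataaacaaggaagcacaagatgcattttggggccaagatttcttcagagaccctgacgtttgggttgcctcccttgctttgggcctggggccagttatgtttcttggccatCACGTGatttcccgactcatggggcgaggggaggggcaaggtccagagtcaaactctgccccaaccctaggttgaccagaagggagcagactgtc
C1qa held GGAAGT at -107 to -102 and at -79 to -74 and TTCCAAGAA at -90 to -82, counted from the start, and C1qb held the reverse of the ETS core, ACTTCC, at -61 to -56. Over 33469 rat promoters of this length 19.2% held GGAAGT and 7.67% held TTCNNNGAA. C3 held TTGCGAAA at -104 to -97, a motif type found in 9.22% of promoters. C4b held CACGTG at -95 to -90, found in 5.59%. None of the 5 held the full estrogen response element (both strands), which 8 promoters (0.0239%) held. These matches describe letters only. The C4a and C4b promoters were identical at 89% of aligned columns, and since C4A and C4B are near-identical genes their reads may have been divided between them, so that C4B values are uncertain.

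Bulk values are counts normalized by the authors' size factors. The recovered reads on genes ran from 4194912 to 52314784 over 202 samples, or 196 profiles after averaging parts of 1 rat, and reads per 1000000 reads on genes (RPM) were used where fractions were compared. Single-cell tables held 16762 sorted ACI, 39766 sorted SD and 103524 whole-gland cells, with median UMIs per cell of 4251 to 15941, 4365.5 to 14448 and 2820 to 3885 by library. The share of cell barcodes found in more than 1 library was 0.209%, 0.546% and 6.31%. Libraries of 4 rats stood apart in the members. Luminal cells of the young SD vehicle rat C6N and basal and luminal cells of the adult virgin vehicle rat C_N1N held high C1q and CFD, and so did basal cells of the NMU rat D1R. Basal cells of the young ACI rat LD10R held high C1S and C4B. Labels conflicted for rat LD2LR, a day 7 vehicle rat by title and a treated rat by the description of its basal and luminal samples, and 1 CD45+ title gave day 9 for rat LD9R where its other titles gave day 7. Values without these libraries stand beside the results that they moved most.

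Between the sorted fractions, some members had their highest median in CD45+ cells, and others differed between basal and luminal cells. Over all gland profiles C1QA had a lowest, median and highest value of 4.39, 252 and 2718 RPM in 65 CD45+ profiles, 0.0523, 1.77 and 633 RPM in 51 basal profiles, and 0.0698, 2.03 and 80.1 RPM in 68 luminal profiles. CFD showed the same order of medians, 232 RPM in CD45+, 8.64 in basal and 13.1 in luminal cells, with ranges of 3.64 to 3304, 1.16 to 987 and 0.931 to 182. The ranges of the fractions overlapped for both genes, and the CD45+ median was the highest of the 3.

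In vehicle rats at day 0, C1QA in CD45+ cells was 252, 1358 and 550 RPM in the 3 ACI rats and 123, 100.3, 57.5 and 51.9 RPM in the 4 SD rats. In basal cells it was 0.879, 1.54 and 1.70 RPM in ACI and 0.0571, 0.242, 0.362 and 0.252 RPM in SD rats. Luminal cells held 0.498, 1.04 and 1.11 RPM in ACI rats, and 0.271, 0.559 and 0.347 RPM in 3 SD rats against 25.3 RPM in rat C6N. CD45+ and epithelial groups did not overlap in either strain. The other C1q chains followed, with CD45+ means of 1230 ± 1081 RPM (SD, n = 3) for C1QB and 1197 ± 1066 for C1QC in ACI rats. In a bulk sample, fewer cells of a type and less RNA per cell cannot be told apart.

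C1S was higher in sorted basal than in sorted luminal cells. It was 58.4, 79.2 and 113 RPM in basal cells of ACI vehicle rats against 8.66, 9.03 and 13.6 RPM in their luminal cells, and 215, 151, 143 and 267 RPM against 28.1, 5.64, 2.30 and 11.4 RPM in SD rats. Basal and luminal groups did not overlap, and the difference of means on the log2(normalized count + 1) scale was 2.92 ± 0.26 (SE) in ACI and 3.97 ± 0.64 in SD rats. CD45+ cells held 72.9, 74.2 and 194 RPM in ACI rats, which overlapped with basal cells. The summed fibroblast markers (5 of 6 listed were measured, none at 0) were 34418 to 53453 RPM in SD basal samples against 251 to 1453 in SD luminal samples, and 3462 to 8893 against 691 to 1431 in ACI rats. Their part in the C1S difference was not tested.

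CFB and C4B were higher in sorted luminal than in sorted basal cells. CFB was 2122, 1975 and 1972 RPM in luminal cells of the 3 ACI vehicle rats against 27.0, 29.2 and 51.1 RPM in basal cells, a log2 difference of -5.93 ± 0.20 for basal minus luminal cells. In SD rats it was 1682, 2182, 1070 and 2047 RPM against 126, 91.4, 189 and 125 RPM, a difference of -4.27 ± 0.26. The groups did not overlap in either strain, and CD45+ cells, at 46.99 to 77.8 RPM in ACI and 83.9 to 364 RPM in SD rats, were also below every luminal sample. C4B was 1438, 1114 and 854 RPM in ACI luminal cells against 47.9, 52.4 and 99.1 RPM in basal cells (-4.19 ± 0.26, without overlap). In SD rats luminal C4B was 558, 520.1, 64.4 and 659 RPM against 87.5, 89.7, 76.6 and 206 RPM, and the groups overlapped, rat C7N holding 64.4 RPM.

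C3 was low in young epithelium, with 2.34, 4.63 and 4.29 RPM in luminal and 1.04, 0 and 2.26 RPM in basal cells of ACI rats, without overlap. In SD rats the values were 7.47, 5.59, 1.68 and 9.47 RPM in luminal and 1.31, 3.64, 1.88 and 4.91 RPM in basal cells, and they overlapped. CD45+ cells held 12.001, 79.1 and 85.5 RPM in ACI and 41.2, 90.7, 24.1 and 10.3 RPM in SD rats. Across all gland profiles luminal C3 ran from 0.127 through a median of 8.67 to 948 RPM, against 0 to 12.8 in basal and 2.77 to 159 in CD45+ cells, and the high end came from the E2 experiment below. Of the 8 members, 3 passed an adjusted p of 0.05 (limma) between basal and luminal cells in ACI rats (C1S, C4B, CFB) where 42.6% of all genes passed, and 4 in SD rats (these and C3) where 54.3% passed. With a block for the rat, since both fractions came from the same rats, C3 also passed in ACI rats, where 4 members then did. Groups without overlap were found for 4 members in ACI rats (53.3% of genes) and 2 in SD rats (52.8%). Without luminal cells of rat C6N the SD differences were 4.67 ± 0.40 for C1S, -1.87 ± 0.62 for C4B and -4.17 ± 0.26 for CFB, while C1QA went from -2.61 to -1.06 and C1QB from -0.53 to 1.37. C3, at -1.22 ± 0.58 without that rat, then no longer passed, and 3 members did, as was also the case without each of 5 other libraries.

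**Figure D1:**
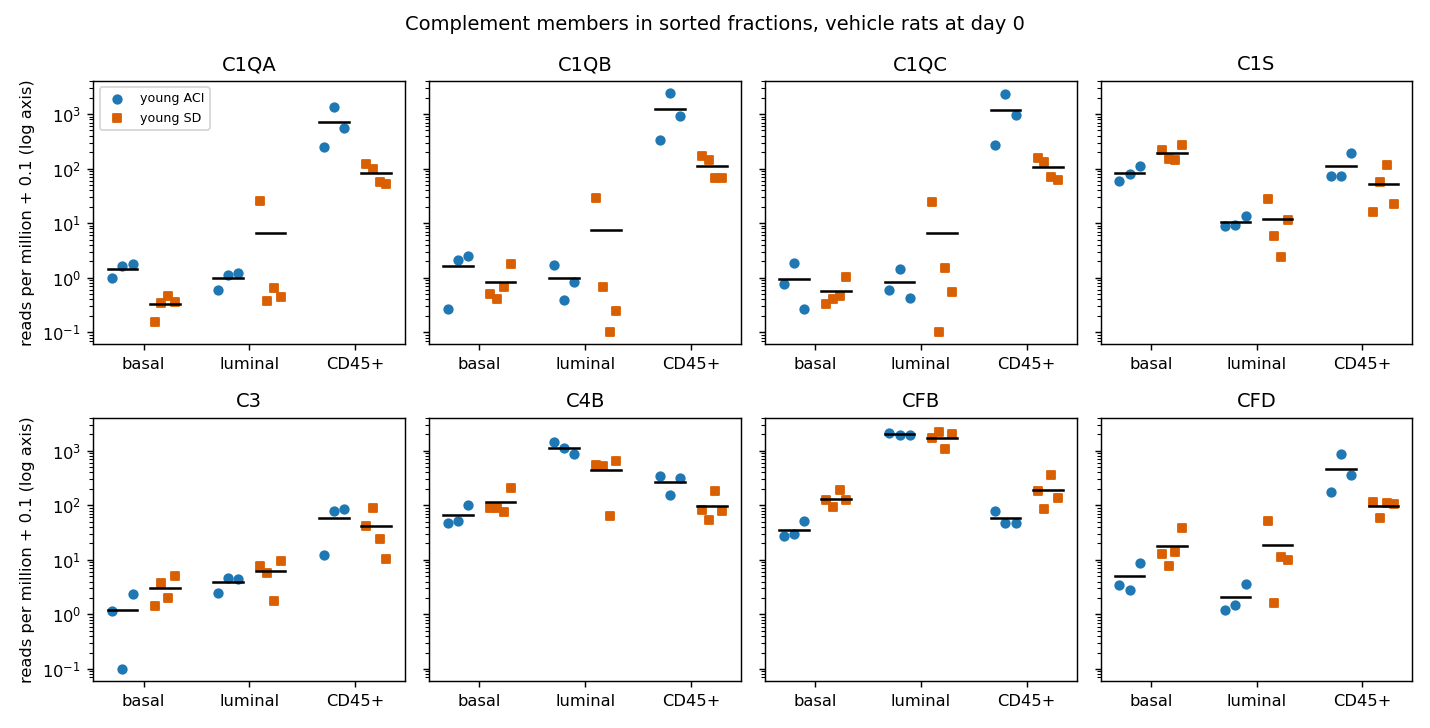
RPM plus 0.1 (log axis) of each member in basal, luminal and CD45+ cells of vehicle rats at day 0, with 1 point per rat (circles ACI, squares SD) and bars at the mean plus 0.1. C1QA lies at 51.9 RPM or more in every CD45+ sample and at or below 1.70 RPM in every epithelial sample but rat C6N, while CFB lies at 1070 RPM or more in luminal cells and at 364 RPM or less elsewhere.

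Single cells of whole SD glands placed the members in the same and in further classes. Cells were clustered without any complement gene, and clusters were named by marker genes as, for example, macrophage-like. Levels are given within a gene across classes, since the share of molecules captured can differ between genes. In the 3 vehicle rats macrophage-like cells (661 cells) held 3651 ± 1379 CPM, the UMIs per 1000000 UMIs of that class in a rat, of C1QA (SD, n = 3 rats), 3782 ± 1305 of C1QB, 3988 ± 1300 of C1QC and 3386 ± 1795 of CFD. The other 14 named classes held at most 38.5 CPM of any C1q chain, the value of C1QC in neutrophil-like cells. A UMI of C1QA was found in 95.1% of macrophage-like cells (median 5468 UMIs per cell) and in 1.13% of basal-like cells (median 7132), which should lack the gene.

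An unnamed cluster of 3256 cells, whose leading genes were SLPI, MMP12, LYZ2 and CFP, held 1010 CPM of C1QA, 1149 of C1QB, 1195 of C1QC and 232 of CFD over all 9 rats. It took no name because marker lists of mast cells, dendritic cells and macrophages all scored there and its leading genes went against the first of these. It made up 2.92% of vehicle and 3.29% of TGFBRi cells. CFD was further found in fibroblast-like cells at 39.2, 47.5 and 334 CPM in the 3 vehicle rats, and in endothelial-like cells at 93.4 ± 47.6. The fibroblast-like values were uneven, 1 rat holding most of the signal. No cluster took the name of fat cells, but in the fibroblast-like cluster of 7465 cells, which held 218 CPM of CFD over all 9 rats, the adipocyte list scored a mean z of 2.74 beside 2.93 for the fibroblast list. At a clustering resolution of 0.4 the corresponding cluster of 8259 cells scored 2.48 for the adipocyte and 2.3 for the fibroblast list and took no name. The other fibroblast-like clusters, of 2811 and 501 cells, held 41.2 and 76.3 CPM of CFD.

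C1S was concentrated in fibroblast-like cells, at 616 ± 57.6 CPM in vehicle rats, with a UMI in 83.8% of cells. Schwann-like cells held 65.9 ± 8.79, pericyte-like cells 55.8 ± 10.9 and basal-like cells 12.2 ± 7.56. The pericyte-like class joined a cluster of 4142 cells with 90.97 CPM over all 9 rats and one of 1394 cells with 15.2 CPM, and the leading genes of the second included the endothelial genes GPIHBP1 and PLVAP. Its partner protease C1R was distributed alike, at 870 ± 112 in fibroblast-like and 74.1 ± 24.6 in basal-like cells. In this experiment basal-like cells were thus well below fibroblast-like cells for C1S in all 3 rats, whose ranges were 6.65 to 20.8 and 553 to 666. In sorted samples of vehicle rats basal-like cells held 30.2, 35.7 and 40.2 CPM of C1S in ACI rats. In SD rats they held 33.9, 14.9 and 39.2 CPM. The 2 luminal classes of these sorted samples held 0.998 to 4.96 CPM, and the 16 fibroblast-like cells of rat SD2 held 523 CPM.

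C4B had 2 main classes, fibroblast-like cells at 268 ± 150 and luminal progenitor-like cells at 109 ± 17.4 CPM, with a UMI in 46.7% and 36.1% of cells. Mature luminal-like cells held only 2.53 ± 0.77 and basal-like cells 0.987 ± 0.826. C3 was highest in neutrophil-like cells, at 396, 334 and 368 CPM in the 3 vehicle rats, followed by macrophage-like cells at 35.3 ± 16.6. Luminal progenitor-like cells held 7.73 ± 6.38 of C3. CFB, by contrast with the bulk samples, was nearly absent, at 1.70 ± 1.65 or less in every class and 0.841 ± 0.368 in luminal progenitor-like cells, where 20 UMIs were counted in 4129 cells. Bulk luminal cells of the same strain and day held 1070 to 2182 RPM of CFB, and the cause of this discrepancy was not tested.

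**Figure D2:**
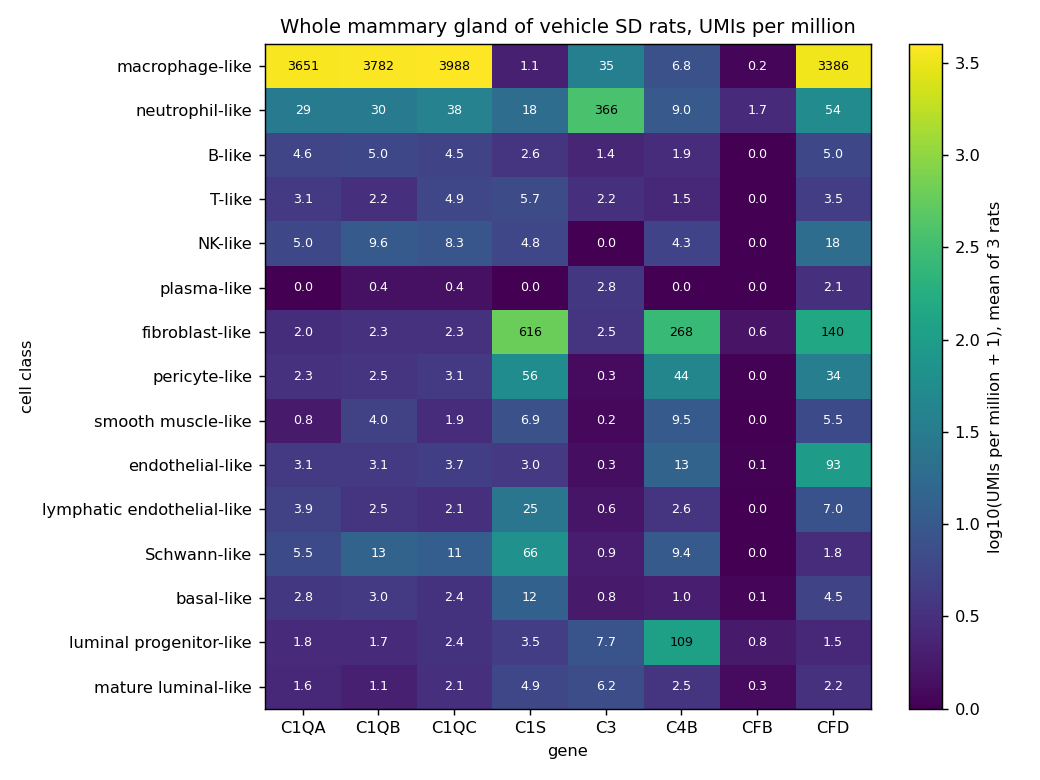
Heat map of the members in 15 cell classes of whole SD glands, each tile the mean CPM of 3 vehicle rats. The C1q chains and CFD are highest in macrophage-like cells (3386 to 3988 CPM), C1S and C4B in fibroblast-like cells, C4B next in luminal progenitor-like cells, and C3 in neutrophil-like cells, while CFB stays at or below 1.70 everywhere.

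Across the 196 bulk profiles the members were also compared by how they varied together. On log2 values the Pearson correlation was 0.988 between C1QA and C1QB and 0.992 between C1QB and C1QC, 0.894 between C1QA and CFD, 0.806 between C4B and CFB, and -0.346 between C1QA and CFB. Of 10452 genes, those most like C1QA were PF4 (0.960), CD300LE (0.957) and CCL6 (0.955), and those most like CFD were FCNA (0.904), PF4 (0.904) and FXYD2 (0.889). C1S was most like EFEMP1 (0.905) and C1R (0.900), C4B most like its paralog C4A (0.964) and NTN1 (0.827), and CFB most like QSOX1 (0.967), CLDN4 (0.961) and ELF3 (0.952). C3 had no close match, the nearest being ARFGAP3 (0.665), LIPA (0.653) and SLC28A2 (0.651). The profiles share rats, sorted fractions and size factors and are not independent points, so the correlations are a description.

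The E2 experiment addressed whether TGFBRi affects tumors that arise under estrogen, and its vehicle rats also allow those with E2 to be set against those without. In luminal cells of vehicle rats C3 was 10579, 13456, 6628 and 7416 normalized counts with E2 against 2505, 51.4, 70.9 and 4146 without it. All rats with E2 were higher than all rats without it, and the log2 difference was 4.36 ± 1.14 (means of 9520 ± 3131 and 1693 ± 2000). Among rats given TGFBRi, C3 was 21804, 13701, 5526 and 17574 in tumor-free and 6980 and 8174 in tumor-bearing rats with E2, and 576, 94.3 and 254 in rats without E2. Of those with E2, 3 tumor-free rats lay above and 1 below the vehicle rats with E2. Luminal C3 was at least 5526 in all 10 rats with E2 and at most 4146 in all 7 rats without it. Both sets held vehicle and TGFBRi rats. The rats without E2 were all tumor-free, while those with E2 were tumor-bearing or, only among TGFBRi rats, tumor-free. Leaving out the rat with 4146 gave a difference of 5.44 ± 1.01, and leaving out the rat with 2505 gave 5.19 ± 1.13.

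CFD was the second member to separate, at 1134, 1108, 855 and 2213 normalized counts with E2 against 293, 385, 320 and 702 without it (1.64 ± 0.43). The groups did not overlap. C1S was 564, 5730, 910 and 6423 with E2 and 1203, 287, 365 and 689 without, and overlapped (1.94 ± 0.89), as did C4B (0.60 ± 0.71), CFB (0.44 ± 0.28), C1QA (0.97 ± 1.07), C1QB (1.10 ± 0.53) and C1QC (0.14 ± 1.15). All 8 members had a positive difference, with a median of 1.04 against 0 over all genes. None passed the threshold, which 1.48% of genes did, and 2 of 8 had groups without overlap against 7.7% of genes. Leaving out the vehicle rat with 4146 normalized counts of C3 brought C3 and CFD (1.91 ± 0.45) past the threshold. Without the rat with 2505 C3 also passed. These rats held the highest C3 of those without E2, so leaving either out widens the C3 difference by itself, and no conclusion is drawn from it.

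Summed luminal markers (4 of 4) were 11348 to 12954 RPM with E2 and 15299 to 23068 without, fibroblast markers (6 of 6) 68.6 to 1079 and 134 to 314, and macrophage markers (7 of 7) 241 to 371 and 189 to 362, with the defining macrophage markers MRC1 and ADGRE1 at 0 in every rat of both groups. In CD45+ cells 7 of 8 members had a negative difference for E2, with a median of -1.08 against -0.04 over all genes. C4B was the lowest, at 75.6, 346, 102.5 and 374 with E2 against 360, 459, 375 and 1059 without (-1.50 ± 0.61), and the groups overlapped. No member passed there, where 0.282% of genes did, and no group pair was free of overlap.

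**Figure D3:**
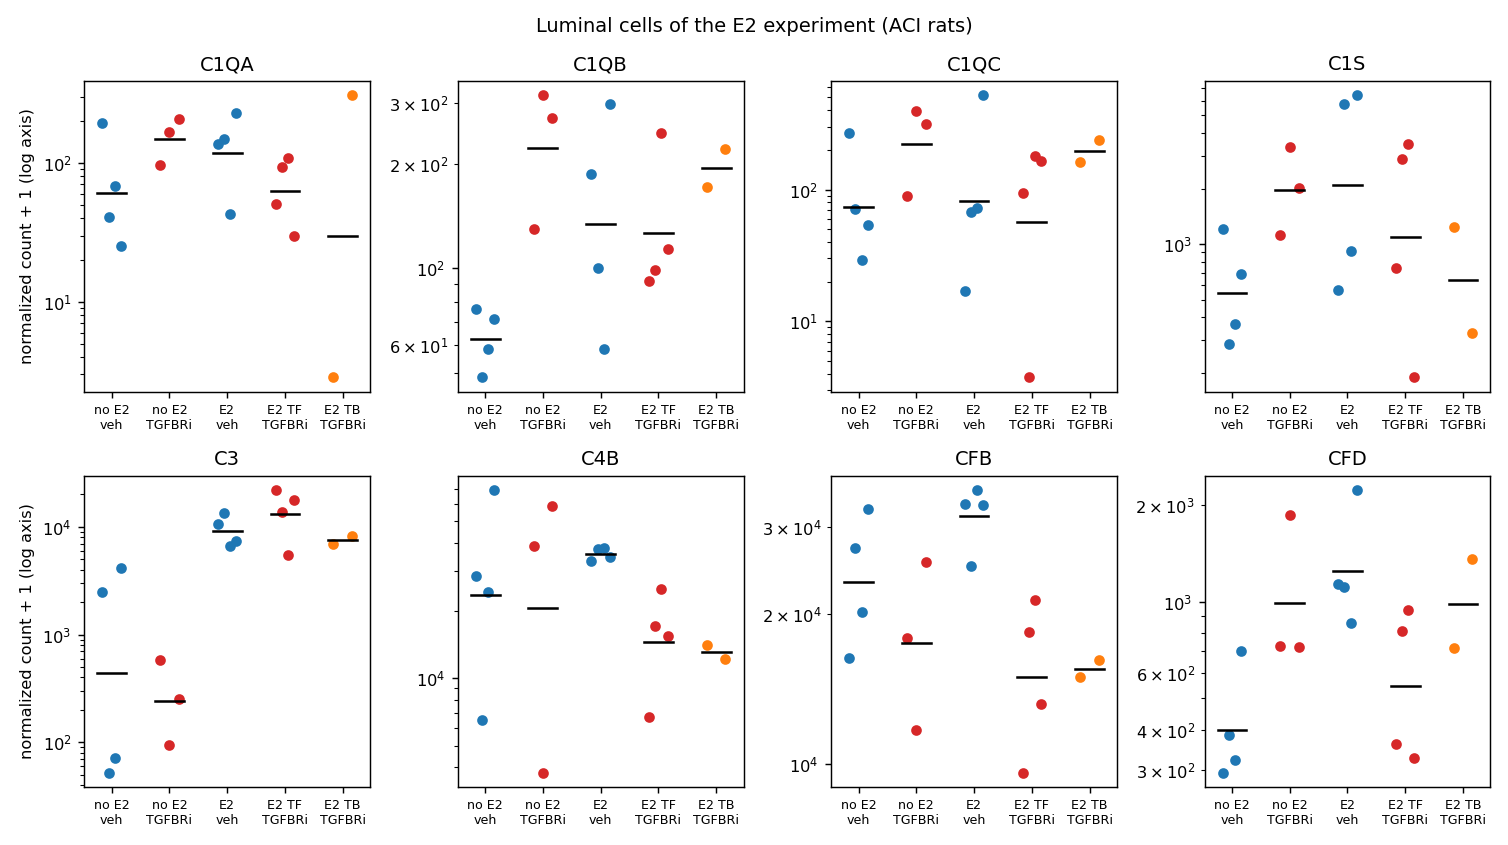
Normalized count plus 1 (log axis) of the members in luminal cells of the E2 experiment, with 1 point per rat and a bar at the mean of log2 values in each of 5 groups. For C3 the 10 rats with E2 lie between 5526 and 21804 and the 7 rats without E2 between 51.4 and 4146.

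With E2 present, tumor-free TGFBRi rats differed from tumor-bearing vehicle rats in luminal C4B and CFB. C4B was 6726, 17045, 24910.5 and 15362 against 33361, 37590, 37939 and 34647 (-1.31 ± 0.71), and CFB was 9620.2, 18393, 21321 and 13200.4 against 33285, 24997, 35465 and 33169 (-1.07 ± 0.28). Neither pair of groups overlapped (5.65% of genes), and no member passed the threshold (0.0147% of genes). The 2 tumor-bearing TGFBRi rats, at 14104 and 12124 for C4B and 14947 and 16160 for CFB, lay with the tumor-free ones. In CD45+ cells all 8 members had a positive difference, with C3 at 485, 327, 501 and 352 against 98.2, 299, 115 and 95.7 (1.60 ± 0.46), which did not overlap (2.37% of genes). Macrophage markers summed to 793 to 2304 RPM in these TGFBRi rats and 130 to 1086 RPM in the vehicle rats, and their part was not tested. No gene of the series passed in that comparison (0%).

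In luminal cells of NMU glands C4B was higher in TGFBRi than in vehicle rats. It was 19474, 26388 and 30637 normalized counts in tumor-free TGFBRi rats and 14161, 8638 and 16084 in tumor-bearing TGFBRi rats, against 1057, 1195 and 5462 in vehicle rats. Every TGFBRi rat was above every vehicle rat, and the log2 differences were 3.72 ± 0.54 and 2.72 ± 0.54. CFB was 47593, 31930.4 and 44510.1 in tumor-free TGFBRi rats against 10396, 11584 and 27308 in vehicle rats (1.45 ± 0.47, without overlap). In tumor-bearing TGFBRi rats CFB was 37572, 32393 and 25838, which overlapped with the vehicle rat C5R (1.09 ± 0.47). C1S, at 631, 622 and 1398 in tumor-free TGFBRi rats, also stood above the vehicle values of 364, 488 and 353.

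C4B passed the threshold in both comparisons, where 0.948% and 0.212% of genes passed, and it was the only member to do so. Of the 8 members, 6 were higher and 2 lower in tumor-free TGFBRi rats, with a median of 0.48 against -0.32 over all genes. In tumor-bearing TGFBRi rats 3 were higher and 5 lower, with a median of -1.07 against -0.26. Groups without overlap were found for 3 members in the tumor-free comparison (22.2% of genes) and 1 in the tumor-bearing one (16.4%). Without rat C5R the tumor-free differences were 4.48 ± 0.41 for C4B and 1.89 ± 0.40 for CFB, and the tumor-bearing ones 3.48 ± 0.41 and 1.52 ± 0.40, all 4 past the threshold. That rat held the highest C4B and CFB of the vehicle rats, so leaving it out widens these differences by itself, and no conclusion is drawn from it. Leaving out C2N, C2R, D1N or D2R ended the C4B call in the tumor-free comparison, and leaving out C2N, C2R, D2N or D4R ended it in the tumor-bearing one. The tumor-bearing call was also lost with edgeR, without a filter on low values and with only the compared groups in the fit. The paralog C4A differed alike, by 3.39 ± 0.50 and 2.56, with adjusted p-values of 0.00787 and 0.037 (limma), as the 1 of 33 other complement genes tested that passed, a call lost in each comparison without any 1 of 4 libraries. Reads may have been divided between C4A and C4B, so the C4A difference is not independent of that of C4B. Luminal markers summed to 7991, 11676 and 21951 RPM in vehicle rats, the last being C5R, and to 20825 to 22604 and 16409 to 19366 RPM in the TGFBRi groups, and adipocyte markers (5 of 5) to 945 to 3236 RPM against 382 to 1355 and 181 to 850. Their part in the C4B difference was not tested.

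**Figure D4:**
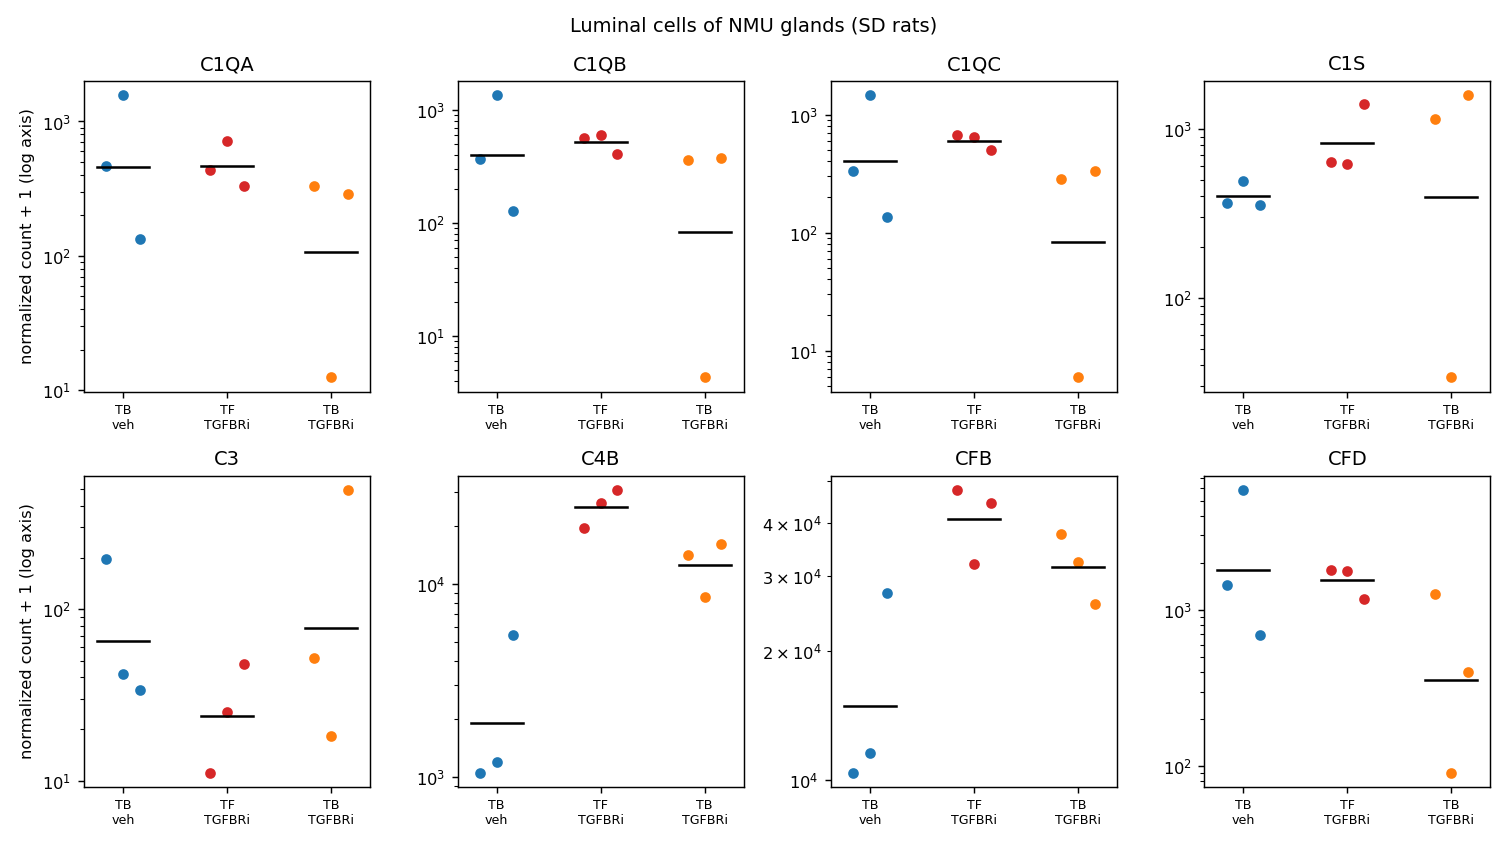
Normalized count plus 1 (log axis) of the members in luminal cells of NMU glands, with 1 point per rat and a bar at the mean of log2 values. For C4B the 6 TGFBRi rats lie between 8638 and 30637 and the 3 vehicle rats between 1057 and 5462, and for the C1q chains and CFD the groups overlap.

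In CD45+ cells of NMU glands C4B and C1S were lower in tumor-bearing TGFBRi rats than in vehicle rats, for C4B the reverse of luminal cells. C4B was 6642, 10536 and 6967 against 26245, 40656 and 42618 in vehicle rats (-2.18 ± 0.45), and C1S was 2609.9, 2532 and 2590.2 against 5157, 7614 and 10321 (-1.52 ± 0.35). Both pairs of groups were free of overlap (11% of genes), and neither passed the threshold (0.015% of genes). Fibroblast markers (5 of 6) summed to 6960 to 10778 RPM in these TGFBRi rats and to 12590 to 27573 in vehicle rats, and basal markers reached 17284 RPM in the TGFBRi rat D2N. Their part was not tested. In tumor-free TGFBRi rats C1QA was 45362, 25003 and 24658 against 18408, 16108 and 14848 (0.89 ± 0.46), and CFD was 55146, 33921 and 34246 against 22737, 22967 and 7053 (1.37 ± 0.46). These genes, with C1QB (0.84 ± 0.47) and C1QC (0.90 ± 0.47), were the 4 members without overlap (7.65% of genes). Macrophage markers were 4292 to 6008 RPM in those rats and 2972 to 5784 in vehicle rats, and no gene passed (0%).

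Basal cells of NMU glands held 189, 277 and 101.02 normalized counts of C1QA in vehicle rats and 429, 429 and 738 in tumor-bearing TGFBRi rats (1.55 ± 1.29), the 1 member without overlap where 21.7% of genes had none and 1.31% passed. Tumor-free TGFBRi rats held 233, 216 and, in rat D1R, 9709.6, and macrophage markers in D1R summed to 1353 RPM against 105.6 to 156 RPM in vehicle rats. Without D1R the tumor-free difference of C1QA went from 2.17 to 0.36 and that of CFD from 1.94 to 0.31. The median over the members went from 1.62 to 0.38. No gene passed in that comparison (0%).

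Tumors were profiled as EPCAM+ and CD45+ cells of 3 vehicle and 3 TGFBRi rats. C1S was 64977, 23649 and 4156 normalized counts in EPCAM+ cells of vehicle and 12274, 32687 and 9178 of TGFBRi rats, C4B 31560.4, 17894 and 1596 against 6533, 19048 and 1557, and CFB 7098, 5126 and 5418 against 2478, 5313 and 1761. Rats C5R and D4R held the lowest values of C1S and C4B in their groups, and all groups overlapped. Fibroblast markers (6 of 6) summed to 9730 to 78038 RPM in EPCAM+ vehicle samples and 20027 to 67656 in TGFBRi samples, the lowest being C5R. Scaled to all reads on genes, EPCAM+ tumor cells had a median of 1084 RPM of C1S, against 29.4 RPM in luminal and 163 RPM in basal cells of the 9 NMU glands each.

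C4B in tumor CD45+ cells had a median of 5.01 RPM (0 to 19.6), against 958 RPM (482 to 3088) in CD45+ cells of the 9 NMU glands. No test was made between tumors and glands. CD45+ cells were sorted from both, while epithelial cells were sorted as EPCAM+ in tumors and as basal and luminal in glands. Gland CD45+ samples also held fibroblast markers, as given above, and their part in the C4B values was not tested. CFD was the member without overlap in EPCAM+ cells, at 305, 341 and 830 in TGFBRi against 282, 138 and 14.5 in vehicle rats (2.38 ± 0.95), where 6.46% of genes had none. C1QA in tumor CD45+ cells was 34073 in vehicle rat C2N and 1716, 2393, 3965, 1556 and 1018 in the other 5 rats. No gene passed in either tumor fraction (0% and 0%).

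Parous and virgin vehicle rats overlapped for every member but 1, CFD in luminal cells. There it was 164, 146, 153 and 170 normalized counts in parous against 2003, 218, 479.6 and 261 in virgin vehicle rats (-1.61 ± 0.54), without overlap where 5.36% of genes had none. Without rat C_N1N, which held 2003, the difference was -0.93 ± 0.41. Luminal C4B, at 36070.0 to 60513 in parous and 38350.1 to 60964 in virgin rats, and CFB overlapped. In basal cells C_N1N held 5322 of C1QA, 6651 of CFD, 58226 of C4B and 17995 of CFB, against 29.7 to 49.2, 83.4 to 225, 2699 to 10045 and 830 to 2777 in the other virgin rats, and macrophage markers of 726 RPM against 165 to 224 RPM in the others. Without it the parity difference went from -0.99 to 0.77 for C1QA and from -1.98 to -1.16 for CFB, and the median over the members from -0.92 to 0.33. No member passed in basal, luminal or CD45+ cells, and neither did any other gene (0% in each fraction).

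Of the treatment comparisons young ACI basal cells at day 0 showed the most members without overlap, 5 of 8 against 32.1% of genes, and all 8 differences were positive, with a median of 1.94 against 0.30 over all genes. C1QB was 83.1, 66.5 and 118 against 2.57, 30.2 and 34.7 (2.47 ± 1.25), C1QC 51.7, 62.4 and 179 against 10.3, 26.9 and 2.31 (3.06 ± 1.15), and CFD 215, 397 and 156 against 53.1, 41.6 and 124 (1.85 ± 0.80). CFB was 857, 1541 and 894 against 421, 447 and 731 (1.03 ± 0.47). C1S was 12182, 2229 and 2407 against 910, 1212 and 1613 (1.73 ± 0.72), and without rat LD10R, which held 12182, it was 0.93. Without that rat all 8 differences were still positive, with a median of 1.55 against 0.32 over all genes, no member passed where 17.6% of genes did, and that of C4B went from 2.02 to 0.89. Macrophage markers (7 of 7) were 305 to 455 RPM against 179 to 196, basal markers (4 of 5) 2170 to 5786 against 6853 to 10556, and fibroblast markers reached 32972 RPM in LD10R. Their part was not tested. No member passed, where 3.34% of genes did.

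At day 7 basal C1S was 749, 3296 and 2769 against 446, 283 and 672 (2.11 ± 0.72), C3 19.6, 55.8 and 17.7 against 9.55, 0 and 0.877 (3.37 ± 1.39), and CFD 119, 90.5 and 76.5 against 24.2, 48.9 and 42.1 (1.32 ± 0.80). These were the 3 members without overlap (10.9% of genes), and 0.00639% of genes passed. Without rat LD2LR, whose labels conflict, the differences of C1S and C3 were 1.79 and 2.65. Fibroblast markers were 2212 to 26811 RPM with TGFBRi and 777 to 5582 with vehicle. At day 14 every member overlapped in basal cells.

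In young ACI luminal cells at day 0 C1S was 1333, 250.1 and 221 against 136, 139 and 213 (1.39 ± 0.66), and CFB was 26865, 26800 and 20221 against 33396, 30462 and 30888 (-0.37 ± 0.41), the 2 members without overlap (32.1% of genes). Without LD10R, which held 1333, the C1S difference was 0.56 ± 0.60. No member passed, where 1.01% of genes did. In CD45+ cells C4B was 4187, 3513 and 2641 against 7843, 4405 and 7432 (-0.91 ± 0.60), without overlap (16.5% of genes), and 2.85% of genes passed. At day 14 CD45+ C3 was 277, 482 and 1082 against 132, 179.9 and 79.6 (2.07 ± 0.83), without overlap where 15.9% of genes had none. In the 19 comparisons of the series where no gene passed, 141 to 1361 genes had an unadjusted p under 0.05, and edgeR called 0 to 3 genes and DESeq2 0 to 268. Among these were luminal and CD45+ cells at day 7, all fractions at day 14, and all fractions of young SD rats (0% in each).

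In adult virgin rats basal C3 was the 1 member to pass, where 8.73% of genes did, at 0, 108.2, 2.89 and 0 with TGFBRi against 208, 148, 38.2 and 55.7 with vehicle (-4.33 ± 1.28). The groups overlapped, and without rat C_N1N it was -3.93 ± 1.4 and did not pass, nor did it without any of 6 other rats. All 8 members had a negative difference in that comparison, with a median of -1.81 against -0.25 over all genes. Without C_N1N 5 of 8 were negative and the median was -0.69, with C1QA going from -2.75 to -0.99, CFD from -1.81 to -0.39, C4B from -2.45 to -1.57, CFB from -1.81 to -0.99 and C1QC from -0.11 to 1.99. No member passed in the other adult comparisons, where 0% of genes in virgin luminal, 0.022% in virgin CD45+, 0.00744% in parous basal, 0.0281% in parous luminal and 0% in parous CD45+ cells did. In parous luminal cells CFD was 508, 316, 889.9 and 187 against 164, 146, 153 and 170 (1.35 ± 0.54), without overlap (6.73% of genes). Without E2 luminal CFD was 728, 1853 and 724 against 293, 385, 320 and 702 (1.31 ± 0.47), and it and C1QB (1.83 ± 0.57) were the 2 members without overlap (3.13% of genes). In those rats 0.0147% of genes passed in luminal and 0% in CD45+ cells.

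Over the 30 comparisons of TGFBRi with vehicle CFD was higher with TGFBRi in 21, C3 in 20, C1QB and C1QC in 18, C1S and C4B in 15, C1QA in 14 and CFB in 12. These comparisons share rats across fractions and vehicle groups across TGFBRi groups, so that they are not independent. C4B held differences of both signs, with 3.72 in NMU luminal cells, -1.31 in luminal cells of E2 rats and -2.18 in NMU CD45+ cells.

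**Figure D5:**
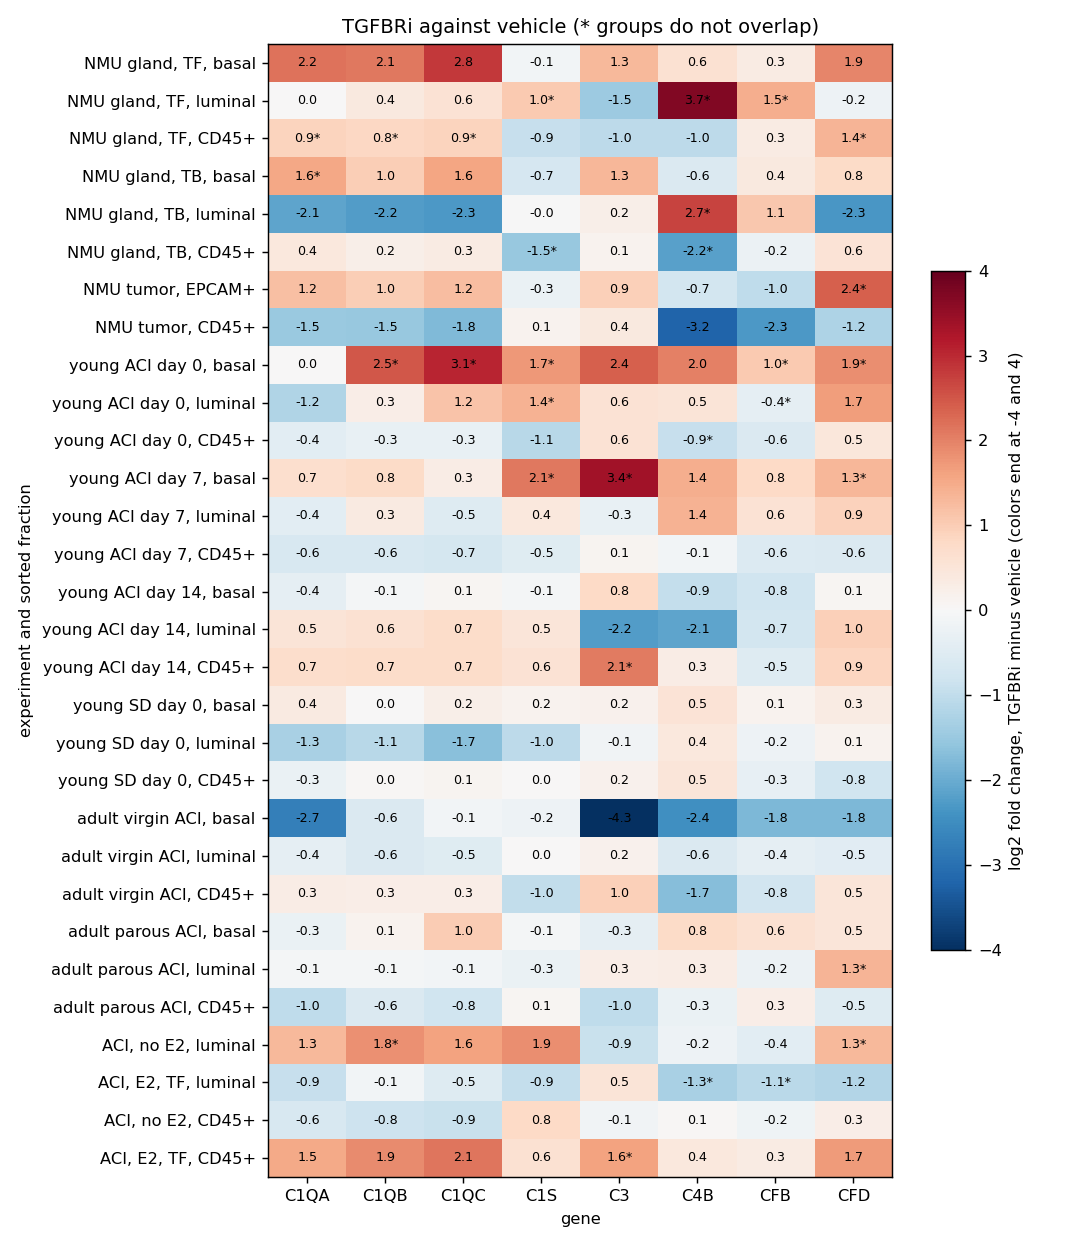
Heat map of log2 differences, TGFBRi minus vehicle, for the members in 30 bulk comparisons, with colors ending at -4 and 4 and an asterisk where the groups did not overlap. Luminal C4B is highest in NMU glands (3.72 and 2.72), basal C3 is lowest in adult virgin rats (-4.33), and the signs of each member vary between experiments.

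Single cells allowed the same question within a class at day 0, with UMIs summed per rat. In whole SD glands (3 vehicle and 6 TGFBRi rats) luminal progenitor-like cells held 124, 90.1 and 114 CPM of C4B with vehicle and 476, 105.8, 501, 436, 87.2 and 123 with TGFBRi, with 3 TGFBRi rats well above and 3 in or just under the range of vehicle rats. Of the whole-gland cells of this class, 965 with vehicle and 3335 with TGFBRi lay in a cluster with a median of 856 UMIs per cell and 77.8 CPM of C4B, and 2869 and 4162 in one with 266 CPM. In sorted SD cells of that class C4B went the other way, with 82.3, 96.1 and 131 in vehicle rats and 55.7, 10.7, 2.29, 14.8, 18.3 and 79.7 in TGFBRi rats, and the groups did not overlap, as for 27.1% of genes in that class (24.2% lower with TGFBRi). Sorted ACI cells were at 84.8, 89.03 and 96.5 with vehicle and 47.1, 45.99 and 56.7 with TGFBRi, again without overlap, as for 45.3% of genes (40.1% lower). The direction thus differed between whole and sorted glands of the same strain, a difference that was not tested. The sorted and whole-gland libraries were made with different kits, which read opposite transcript ends, and only sorted cells were filtered for keratin reads.

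Different clusters held the luminal progenitor-like cells of the treatments in sorted SD samples. One cluster held 4113 vehicle and 431 TGFBRi cells, while another held 17 vehicle and 2276 TGFBRi cells with 67.6 CPM of C3 and 3.57 of C4B. In the latter cluster only 4 rats had at least 10 cells. In sorted SD cells C3 in this class had a mean of 2.72 with vehicle, at 1.87, 2.35 and 3.96 in the rats. With TGFBRi the mean was 16.0, with a range from 1.26 to 70.2, the latter held by 1 rat, SD12. That rat also held the lowest C4B of this class, 2.29 CPM. In whole glands C3 in this class was 7.73 ± 6.38 with vehicle and 35.5 ± 36.5 with TGFBRi, where 1 TGFBRi rat held 109. In neutrophil-like cells C3 was 396, 334 and 368 with vehicle and 569, 469, 548, 476, 584 and 528 with TGFBRi, without overlap, as for 11.7% of genes (8.83% higher), and no test was run in this class. Median UMIs per cell of this class did not overlap either, at 2352, 2066 and 1826.5 with vehicle and 2680.5 to 4145 with TGFBRi. Macrophage-like C1QA was 3651 ± 1379 with vehicle and 4613 ± 1049 with TGFBRi, and CFD 3386 ± 1795 and 3686 ± 760, with overlap.

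Of the members with enough UMIs to enter the test (edgeR quasi-likelihood, 5 to 8 per class), none passed in whole-gland basal-like, luminal progenitor-like, mature luminal-like, fibroblast-like, endothelial-like or macrophage-like cells, where 36%, 19.7%, 19.6%, 21.8%, 24% and 1.89% of genes did. In sorted ACI cells C4B passed in luminal progenitor-like cells (log2 difference -0.52 after TMM scaling, 19.3% of genes), a call lost without any 1 of 4 rats, and none did in basal-like (25.7%) or mature luminal-like cells (17.7%). In sorted SD cells C1QA passed in mature luminal-like cells, on 3 UMIs with vehicle and 95 with TGFBRi (19% of genes), a call lost without any 1 of 5 rats. Of the mature luminal-like cells there 1195 vehicle and 55 TGFBRi cells lay in one cluster, and 119 and 3827 in another. None passed in basal-like (17.4%) or luminal progenitor-like cells (11.3%).

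Other complement genes, 38 listed by role, were tested in the same fits. Between basal and luminal cells 3 of 30 were higher and 9 lower in ACI rats, where 42.6% of all genes passed, and 5 of 24 higher and 8 lower in SD rats, where 54.3% did. C1R, the protease that activates C1s, was higher in basal cells like C1S, with log2 differences of 2.67 (adjusted p = 4.72e-08, limma) and 2.19 (0.00161). On the luminal side were C4A, at -4.66 (adjusted p = 3.99e-08, limma) and -3.23 (0.000444), the C3b-cleaving protease CFI, at -4.18 (2.38e-08) and -2.83 (0.000131), the terminal pathway inhibitor CLU, at -1.99 (1.74e-07) and -2.65 (1.23e-05), and C2, at -1.57 (1.35e-05) and -2.19 (5.55e-05). Each of these calls was kept when any 1 library was left out. C1R, CLU and C2 are named out of the order of size. In ACI rats C5AR2 (-4.59, adjusted p = 0.00508, limma), VTN (3.77, 9.77e-05) and C4BPA (-3.18, 0.000177) differed by more. In SD rats these 3 were at -3.15 (adjusted p = 0.000446, limma), 1.66 (0.0174) and -4.05 (0.00146). Of their calls only that of VTN in SD rats was lost, without any 1 of 2 of 8 libraries.

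TGFBRi in day 0 basal cells of ACI rats raised 5 of 34, where 3.34% of all genes passed (17.6% without LD10R), the terminal component C6 (by 3.02, adjusted p = 0.0332, limma), the decay-accelerating factor CD55 (by 2.54, 0.0439) and the low genes C9, C5AR1 and ITGAM, named after their values were seen. C6 was at 1197 ± 1247 with TGFBRi against 126 ± 77.9 normalized counts with vehicle, and CD55 at 437 ± 327 against 76.9 ± 61.3 (SD, n = 3). Without rat LD10R the differences were 2.20 (adjusted p = 0.0302, limma) and 1.96 (0.0514). The C6 call was lost without any 1 of 3 of the 6 libraries, the CD55 call without any 1 of 5 and the calls of C9, C5AR1 and ITGAM each without any 1 of 4. Macrophage markers were higher and basal markers lower in these TGFBRi samples, as given above for the members, and their part was not tested. C5AR1, the receptor of the anaphylatoxin C5a, was at 0 in all 3 vehicle rats and at a mean of 44.1 normalized counts in the TGFBRi rats. Between vehicle rats with and without E2, CLU in CD45+ cells was lower by 2.00 with E2 (adjusted p = 0.0491, limma). The low gene CFI also passed, and was also lower with E2. These were 2 of 30 tested, where 0.282% of genes passed. Their calls were lost without any 1 of 7 and of 6 of the 8 libraries. E2 and tumor bearing cannot be told apart in these rats. In luminal cells the lectin pathway protease MASP1, with a mean of 84.9 without E2, was at 0 in all 4 vehicle rats with E2, the 1 of 28 that passed (1.48% of genes). TGFBRi lowered VTN, an inhibitor of the terminal pathway, in day 0 CD45+ cells of ACI rats (log2 difference -3.02, adjusted p = 0.0234, limma, 1 of 34, 2.85% of genes), and C1R (-0.72, 0.0339) and MASP1 in adult virgin basal cells (2 of 29, 8.73% of genes). The VTN call was lost without any 1 of 2 of 6 libraries, among them LD10R (-2.84, adjusted p = 0.0927, limma). In whole SD glands VTN was among the leading genes of both pericyte-like clusters. The part of such cells in these CD45+ values was not tested. The calls of C1R and MASP1 were lost without any 1 of 5 and of 7 of 8 libraries, among them C_N1N (0.0852 and 0.0809). CFI and MASP1 were named after their values were seen. None of 29 to 33 other genes passed for parity, in NMU basal or CD45+ cells or in tumors, or of 24 to 34 in the other treatment comparisons. In the 12 single-cell comparisons 14 to 26 of these genes were tested, and there were 18 calls, 10 higher and 8 lower with TGFBRi. Of these, 9 were at 50 CPM or more and are given first, as log2 differences with adjusted p-values from edgeR.

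In whole SD glands TGFBRi raised C2, the protease partner of C4b, in luminal progenitor-like cells (0.70, adjusted p = 0.00347, edgeR), where its level went from 34.7 ± 2.495 to 60.9 ± 3.42 CPM and 2 of 25 passed (19.7% of genes). The split of this class between clusters is given above for C4B. CR1L rose in basal-like cells (0.60, adjusted p = 0.00953, edgeR), where 3 of 21 passed (36% of genes). Different clusters held most basal-like cells of the treatments there, one with 3033 vehicle and 206 TGFBRi cells and another with 1114 and 5059. CD55 fell by 0.82 (adjusted p = 0.0119, edgeR) and CLU by 1.66 (0.0185) in fibroblast-like cells, the 2 of 26 that passed (21.8% of genes), and CD55 fell by 1.49 (0.000217) in endothelial-like cells, where 2 of 20 passed (24% of genes). In sorted ACI cells CLU rose in basal-like cells (0.64, adjusted p = 0.00108, edgeR), the 1 of 14 that passed (25.7% of genes). The treatments lay largely in different basal-like clusters there too, one with 2670 vehicle and 122 TGFBRi cells and another with 85 and 1723. CD59, an inhibitor of the terminal pathway, rose in luminal progenitor-like (0.70, adjusted p = 0.00708, edgeR, 3 of 18, 19.3% of genes) and mature luminal-like cells (0.40, 0.028, 3 of 17, 17.7% of genes), and CR1L fell by 0.51 (0.00948) in the latter. One cluster of these sorted ACI mature luminal-like cells held 397 vehicle and 1214 TGFBRi cells, and another 1078 and 779. The calls at 50 CPM or more were lost without any 1 of 3 of 6 rats for CD59 in mature luminal-like cells, 2 of 9 for CLU and 1 of 9 for CD55 in fibroblast-like cells and 1 of 6 for CR1L in mature luminal-like cells, and the other 5 were kept. Below that level, and named after their values were seen, C2 in basal-like (1.23, adjusted p = 0.000185, edgeR), CD55 in luminal progenitor-like (-1.95, 0.000865) and VTN in mature luminal-like cells (-3.24, 0.00553) of whole glands kept their calls without any 1 rat, and the remaining 6 lost theirs without any 1 of 5 to 7 rats.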

How the data were processed

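Bulk RNA-seq was made by the authors with STAR 2.5.1b on rn6, HTSeq and DESeq2 1.30.1, and the deposited values are counts divided by size factors, here treated as a normalized signal. Whole reads were recovered from 100% of 2526805 values at a tolerance of 0.001. Rows that named no gene (23.1 to 42.5% of reads in the adult and E2 tables) were left out. Single-cell tables are UMI counts, which the authors made with Cell Ranger 4.0.0 and 7.0.0 and filtered with Seurat 4.0.0 and 4.1.1. Bulk reads were counted without regard to strand, so overlapping genes cannot be told apart in the bulk values.

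As the values are normalized, groups were compared with limma 3.58.1 (trended, robust) on log2(normalized count + 1), over genes summing to at least 10 and over all groups of a fraction, with Benjamini-Hochberg adjusted p of 0.05 or less. Alternatives were edgeR 4.0.16, DESeq2 1.42.0, a pseudocount of 5, no filter, only the compared groups, a replicate block and leaving out each library. Single cells were clustered without complement genes (scanpy 1.11.5, Leiden 0.8, 30 components, 20 neighbors), with doublets treated by leaving out the 6% highest Scrublet scores as an alternative, and UMIs were summed per rat for edgeR (TMM, at least 10 cells and 10 UMIs). A cluster took a name where the mean z of a marker list exceeded 0.5 and led the next by 0.1 with at least 3 markers at 20 CPM or more, unless its 10 leading genes held more markers of another list (smooth muscle aside for basal) than of its own or, at low UMI counts, none of its own. These limits were set after the clusters were seen. Fits were tested on simulated data. Other tools were R 4.3.3, Python 3.11.15 and matplotlib 3.10.9.

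The members and gene lists were chosen with earlier results of these data known. Other complement genes were named where they passed with a mean of at least 50 normalized counts (50 CPM in single cells, a reading of the rule made after the values were seen). The rule was at most 5 per comparison by size of change, and exceptions are marked. Basal, luminal and CD45+ samples of 1 rat came from the same animal, and their deviations correlated at 0.0594 to 0.228 in ACI and 0.0926 to 0.201 in SD rats, so a block for the rat was tried. Depth was 4194912 to 52314784 reads on genes per sample. Counts cover counting error only.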

Additional observations from a re-analysis of the deposited data

Results flagged for a closer look

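Dixon's test was run on 248 sets of values, each of 1 member in 1 group of 4 to 10 rats. In 18 sets a rat stood apart from its group, where chance alone flags about 1 in 20 of all sets tested. The sets share rats and are not independent. On the log2(normalized count + 1) scale the adult virgin vehicle rat C_N1N stood high in basal cells for C1QA (12.378, the others 4.94 to 5.65) and C1QB (12.7912, the others 5.47 to 6.04), and in luminal cells for C1QC (11.5684, the others 5.34 to 5.72). The parous TGFBRi rat D_P2R stood high in CD45+ cells for C1QC (15.3617) and CFD (15.3012), and rat D_P1R stood high in basal cells for CFB (10.7694) and low in luminal cells for C3 (9.13869). In luminal cells of young SD TGFBRi rats, D8N stood high for C1QC (4.93467) and low for C4B (10.7944), and in CD45+ cells of young SD vehicle rats C6R stood low for CFD (9.62267). In the E2 experiment 1 tumor-free TGFBRi rat stood low in luminal C1QC (1.90684, the others 6.56 to 7.49) and 1 tumor-bearing vehicle rat stood high in CD45+ C3 (8.22991).

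In single cells, on the log2(CPM + 1) scale, the sorted SD TGFBRi rat SD12 stood high in basal-like cells for C1QA (1.67776), C1QC (1.58637) and C3 (1.14891), all at low levels. Rat SD10 stood low in luminal progenitor-like cells for C1QB (0). In whole glands the TGFBRi rat ly1 stood low in macrophage-like cells for C1QB (11.5039), and rat ly4 stood high in luminal progenitor-like cells for C3 (6.77989, the others 3.81 to 4.89).

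In 2 cases every TGFBRi rat lay above every vehicle rat in 1 fraction and below in another. CFB differed by 1.03 in basal and by -0.37 in luminal cells of young ACI rats at day 0, and C4B by 2.72 in luminal and by -2.18 in CD45+ cells of tumor-bearing NMU rats. These differences between fractions were not tested.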

How the results depend on the processing

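The count of members past the threshold was 0, 1, 3 or 4 in every comparison, and no log2 difference that passed changed its sign under any alternative. Among alternatives that kept all libraries the count stayed within 1.5 times its value in 219 and moved further in 20. With DESeq2 it became 1 for parity in luminal cells (CFD) and 1 for E2 in luminal cells (CFD). DESeq2 also gave 2 for tumor-free (C4B and CFB) and 2 for tumor-bearing NMU luminal cells (C4B and CFD), and 2 for tumor-bearing NMU CD45+ cells (C1S and C4B). It gave 1 for day 0 basal cells of ACI rats (C1S), and 1 each for luminal progenitor-like (C3) and endothelial-like cells (C4B) of whole glands. With a pseudocount of 5 it became 1 for E2 in luminal cells (C3) and 0 for adult virgin basal cells. Fitted on the compared groups only it became 0 for tumor-bearing NMU luminal cells, 2 for day 0 basal cells of ACI rats (CFB and CFD) and 0 for adult virgin basal cells. DESeq2 called C4B in place of C3 in adult virgin basal cells, and edgeR called 6 members between SD basal and luminal cells, adding C1QA and C1QC. The count became 0 for tumor-bearing NMU luminal cells without a filter and with edgeR, and 2 for adult virgin basal cells with edgeR (C1QA and C4B). With parts of 1 rat as samples it became 1 for luminal cells of E2 rats given TGFBRi (CFB), and at a clustering resolution of 0.4 it became 1 for basal-like (CFD) and 1 for luminal progenitor-like cells (CFB) of whole glands, where the main fibroblast-like cluster lost its name. The cause of these changes was not tested. Without 1 library at a time the count ran from 0 to 2 for E2 in luminal cells, for both NMU luminal comparisons and for adult virgin basal cells. It ran from 3 to 4 between basal and luminal cells of either strain, and from 0 to 1 in luminal progenitor-like and mature luminal-like cells of sorted SD glands, luminal progenitor-like cells of sorted ACI glands, and basal-like, endothelial-like, fibroblast-like and luminal progenitor-like cells of whole glands. A replicate block for the rat gave 4 members in ACI and 4 in SD rats when basal were compared with luminal cells, against 3 and 4 without it, the member added in ACI rats being C3, which a pseudocount of 5 also added there, and without a filter C3 no longer passed in SD rats. In adult rats the animal code marks no shared animal, with correlations of -0.744 to 0.413, and a replicate block on it gave 2 members in adult virgin basal cells (C3 and C4B) and changed no other count of members by more than 1.5 times. Counts over all genes moved by more than 1.5 times in 75 such alternatives and by less in 164. The groups of 2 to 4 rats and, in single cells, the few UMIs of most members outside their main classes limit what can be seen.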
